A study of Homo sapiens with 4 samples.

Results

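RNA polymerase II transcribes all protein-coding genes of the nucleus, and the genes described here encode its subunits. The members were taken by gene symbol from a set of 10 POLR2 genes, of which 9 are among the 12033 genes with values: POLR2A, POLR2B, POLR2C, POLR2E, POLR2G, POLR2H, POLR2I, POLR2J and POLR2L. POLR2F, the remaining gene of the set, is not analysed here. The set was chosen on the RPKM values themselves, with the low level of POLR2A in the targeted libraries already known. The levels and the ratios to the control below are therefore a description with no test.

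RNA was sequenced from BJ-indRASG12V cells, human BJ fibroblasts immortalized with hTERT in which 4-hydroxytamoxifen (4-OHT) activates the oncogene RASG12V and drives the cells into oncogene-induced senescence (OIS), a lasting arrest of proliferation. Each of 4 conditions is represented by 1 library, and all cells had been treated with 4-OHT for 14 days. Every condition carried a CRISPR-Cas9 vector: sgRNA-AP1-69 or sgRNA-AP1-71, independent guides against the AP-1 site of the enhancer Enh.AP1.OIS1, sgRNA-FOXF1, a guide against FOXF1, the gene that the study assigns to the enhancer, or sgRNA-NT, a non-targeting control. The transduced cells were selected with an antibiotic, and no isolation of single clones is described. The study reports that cells with either enhancer guide or with the FOXF1 guide bypassed OIS. Under 4-OHT they stained less for a senescence marker and took up more BrdU, a label of DNA synthesis, than control cells. The targeted libraries may therefore differ from sgRNA-NT in proliferation, and the part of this in the ratios below was not tested. Expression is given as RPKM, reads scaled to transcript length and to the reads of the library, quantile normalized over the 4 libraries, with a floor of 1 RPKM.

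POLR2A and POLR2B are the large subunits that form the catalytic centre between them. POLR2A also carries the C-terminal domain (CTD), a tail of heptad repeats whose phosphorylation accompanies the passage from initiation to elongation. POLR2C, POLR2J and POLR2L belong to the assembly platform on which the enzyme is built, POLR2E, POLR2H and POLR2L are shared with RNA polymerases I and III, POLR2G is part of the stalk that contacts the emerging RNA, and POLR2I has a part in transcriptional fidelity, known best from yeast. The subunits enter the enzyme in fixed proportions as proteins, whereas their mRNAs need not be equally abundant.

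FOXF1 was at 11.1 RPKM with sgRNA-AP1-69, 7.8 RPKM with sgRNA-AP1-71, 25 RPKM with sgRNA-FOXF1 and 29.6 RPKM with sgRNA-NT. An edited FOXF1 transcript still counts as FOXF1, so the level with sgRNA-FOXF1 does not check that label. Of 10 fibroblast markers, 9 were above the floor in every library, with FAP at the floor in all 4, and their summed levels were 5225.0, 5396.2 and 5159.2 RPKM in the targeted libraries in the order above and 3711.4 RPKM with sgRNA-NT. The sums rest mostly on VIM and S100A4, and the markers did not move together. Their median log2 ratios to sgRNA-NT were -0.35, -0.07 and 0.03, and FN1, a matrix protein, was at log2 ratios of -1.49, -2.19 and -1.08. Another 12 markers, of epithelial, endothelial, blood, muscle and neural crest lineages, are not analysed here. The number of reads behind each value is unknown, so no counting error can be given.

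To show where the members start, the promoters of POLR2A, the member with the largest difference between libraries, of POLR2E, a member higher in all 3 targeted libraries, and of POLR2C, the member with a forkhead motif, are given from RefSeq (GRCh38.p14, 250 bases before to 50 after the start, on the strand of the gene). POLR2A lies at chr17:7484116-7484415 on the plus strand, POLR2E at chr19:1095326-1095625 on the minus strand and POLR2C at chr16:57462429-57462728 on the plus strand, and capitals mark the motif matches.
POLR2A: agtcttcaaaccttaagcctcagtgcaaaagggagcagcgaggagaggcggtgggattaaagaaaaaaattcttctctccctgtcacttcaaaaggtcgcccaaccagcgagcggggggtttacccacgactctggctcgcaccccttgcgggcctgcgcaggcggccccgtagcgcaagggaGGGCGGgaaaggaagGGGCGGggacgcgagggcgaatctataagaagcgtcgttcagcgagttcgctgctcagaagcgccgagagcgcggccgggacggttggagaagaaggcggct
POLR2E: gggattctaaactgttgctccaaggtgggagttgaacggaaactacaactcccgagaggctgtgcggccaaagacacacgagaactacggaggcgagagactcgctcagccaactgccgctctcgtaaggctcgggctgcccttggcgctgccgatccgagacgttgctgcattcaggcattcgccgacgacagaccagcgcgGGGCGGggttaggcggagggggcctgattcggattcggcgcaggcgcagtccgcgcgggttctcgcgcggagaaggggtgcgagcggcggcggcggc
POLR2C: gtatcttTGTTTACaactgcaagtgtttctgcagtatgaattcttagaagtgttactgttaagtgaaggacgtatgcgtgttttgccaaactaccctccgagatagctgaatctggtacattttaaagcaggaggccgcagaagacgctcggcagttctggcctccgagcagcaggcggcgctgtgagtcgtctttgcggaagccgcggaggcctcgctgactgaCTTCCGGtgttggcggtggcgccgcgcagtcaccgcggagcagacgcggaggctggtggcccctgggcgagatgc
The motifs searched on both strands were the AP-1 site TGACTCA, the forkhead core TGTTTAC, the GC box GGGCGG, the CCAAT box, the TATA element TATAAA and the ETS core CCGGAAG, and no match overlapped another in the 3 sequences shown. The POLR2A promoter held 2 GC boxes and the POLR2E promoter 1, a motif present in 45.0% of 35116 RefSeq promoters of this length. It was found in 5 of the 6 measured members with an entry, POLR2A, POLR2B, POLR2E, POLR2H and POLR2L. The POLR2C promoter held 1 forkhead core, found in 3.42% of all promoters, and 1 ETS core, found in 10.3%. The AP-1 site, found in 4.95% of all promoters, was in none of the promoters of the 6 measured members with an entry, and neither was the CCAAT box or the TATA element. POLR2G, POLR2I and POLR2J had no entry. A match is a string of letters and not a measured binding site.

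POLR2A mRNA was lower in each targeted library than in the control. It was at 6.4 RPKM with sgRNA-AP1-69, at 3.2 RPKM with sgRNA-AP1-71 and at 10.7 RPKM with sgRNA-FOXF1, against 28.1 RPKM with sgRNA-NT. The lowest level was thus found with sgRNA-AP1-71, and that with sgRNA-FOXF1 was the nearest to the control. POLR2A was 4.39-fold lower in the sgRNA-AP1-69 library, 8.78-fold lower for sgRNA-AP1-71 and 2.63-fold lower for sgRNA-FOXF1, or log2 ratios of -2.13, -3.13 and -1.39. The values carry 1 decimal, and this rounding alone places the log2 ratio of the lowest value, that of sgRNA-AP1-71, between -3.16 and -3.11. For 7596 genes the mean over the 4 libraries was 2 RPKM or more, and only these were compared. Among them POLR2A ranked 4 from the lowest ratio in the sgRNA-AP1-69 library, 5 for sgRNA-AP1-71 and 140 for sgRNA-FOXF1. As a level, it stood at percentile 41.5 of these genes in the sgRNA-AP1-69 library, 16.9 for sgRNA-AP1-71 and 57.9 for sgRNA-FOXF1, against 81.3 with sgRNA-NT. In RNA from whole cultures, fewer cells with a transcript and less of it per cell cannot be told apart, and quantile normalization keeps only the level relative to other genes. A change of all mRNAs together would not be seen.

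POLR2B, the other catalytic subunit, was nearer to its control level and at most 1.46-fold lower. It was at 6.7 RPKM with sgRNA-AP1-69, at 7.7 RPKM with sgRNA-AP1-71 and at 5.7 RPKM with sgRNA-FOXF1, against 8.3 RPKM with sgRNA-NT. Its log2 ratios of -0.31, -0.11 and -0.54 in the same order kept the sign of POLR2A but not its size, and its lowest level was with sgRNA-FOXF1, where POLR2A was least reduced. Before the correction for transcript length given below, POLR2A and POLR2B were the only members below the control in all 3 targeted libraries. After it POLR2B was at 0.06 with sgRNA-AP1-71, and the members below the control in all 3 were POLR2A, POLR2G and POLR2L.

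The assembly platform subunits differed little between the targeted libraries, and of them only POLR2J came near a 1.5-fold difference from the control. POLR2C was at 33.2 RPKM with sgRNA-AP1-69, at 32.6 RPKM with sgRNA-AP1-71 and at 30.5 RPKM with sgRNA-FOXF1, against 26.2 RPKM with sgRNA-NT. Its partner POLR2J had the highest ratios of all members, with 31.5, 32.0 and 31.4 RPKM in the targeted libraries in that order, against 21.5 RPKM with sgRNA-NT. The 3 targeted libraries were within 0.03 of each other in the log2 ratio of POLR2J (0.55, 0.57 and 0.55), all above the control. POLR2J has near-identical copies, of which POLR2J3 was at the floor in all 4 libraries, and how reads shared between them were counted is not given in the sources used here. POLR2L was by far the most abundant member, at 283.1, 243.4 and 268.9 RPKM in the targeted libraries, against 276.3 RPKM with sgRNA-NT. Its log2 ratios of 0.03, -0.18 and -0.04 made it the only one of the smaller subunits that was not above the control in every targeted library.

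POLR2E and POLR2H, also shared with the other polymerases, were above the control in each targeted library. POLR2E was at 25.5 RPKM with each enhancer guide and at 26.6 RPKM with sgRNA-FOXF1, against 18.5 RPKM with sgRNA-NT. POLR2H was at 16.9 RPKM with sgRNA-AP1-69, at 19.0 RPKM with sgRNA-AP1-71 and at 20.6 RPKM with sgRNA-FOXF1, against 15.3 RPKM with sgRNA-NT. Among the smaller subunits POLR2H varied most between the targeted libraries, with a log2 range of 0.29. Its extremes were sgRNA-AP1-69 and sgRNA-FOXF1, a comparison with an SD of 0.34 over all genes. The stalk subunit POLR2G was at 28.6, 29.9 and 27.9 RPKM in the same order, against 25.2 RPKM with sgRNA-NT. POLR2I was at 18.8, 18.9 and 20.4 RPKM, against 15.3 RPKM with sgRNA-NT.

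**Figure D1:**
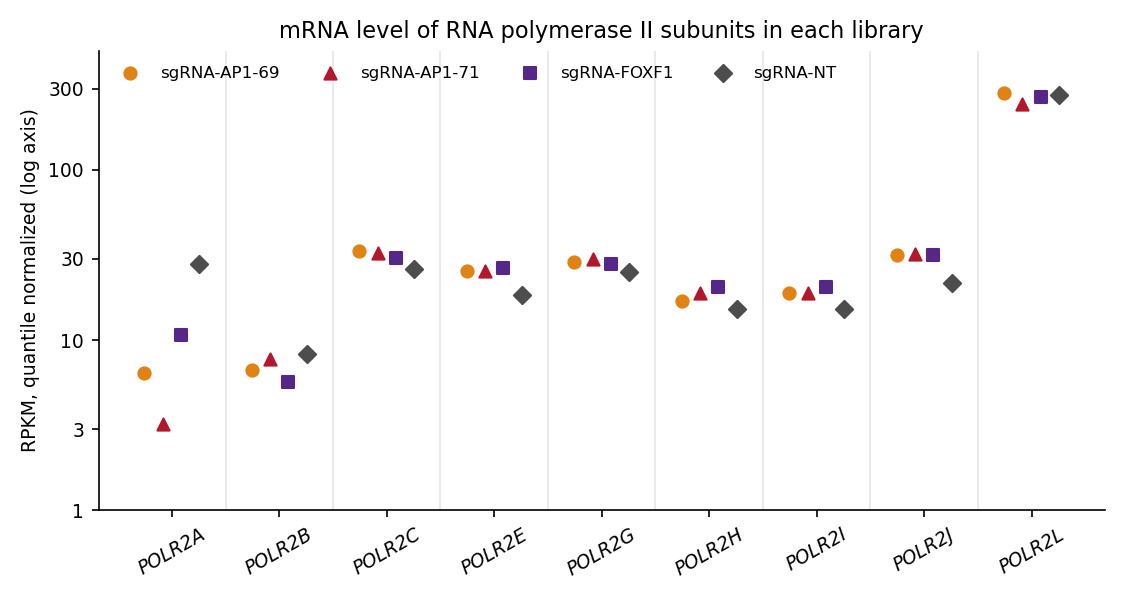
Level of each of the 9 members in RPKM on a log axis, 1 point per library (sgRNA-AP1-69 circles, sgRNA-AP1-71 triangles, sgRNA-FOXF1 squares, sgRNA-NT diamonds). POLR2A spreads from 3.2 to 28.1 RPKM, while the 4 points of every other member lie within 1.5-fold of each other.

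At a 1.5-fold difference, 1 of 9 members, POLR2A, was lower and 0 were higher in each targeted library. Over all genes compared, 9.93% were lower by this measure and 8.18% higher in the sgRNA-AP1-69 library. The shares were 14.7% lower and 14.0% higher in the sgRNA-AP1-71 library and 13.2% lower and 11.6% higher in the sgRNA-FOXF1 library, and 5.85% were lower in all 3. POLR2A was also the 1 member at least 2-fold lower, against 3.30% of all genes in the sgRNA-AP1-69 library, 6.38% for sgRNA-AP1-71 and 4.96% for sgRNA-FOXF1, and 1.71% in all 3 libraries. None of the members was 2-fold higher, against 1.34%, 3.80% and 3.20% of all genes in the same order. As the set was chosen for POLR2A, nothing is read from these shares. The 7 smaller subunits had median log2 ratios of 0.30 in the sgRNA-AP1-69 library, 0.31 for sgRNA-AP1-71 and 0.42 for sgRNA-FOXF1, beside 0.07, 0.08 and 0.06 over all genes. Of these subunits 6 were above the control in all 3 libraries, as were 40.3% of all genes, although POLR2G in each library and POLR2I with sgRNA-AP1-69 turned below it once the length trend described below was removed. None reached a 1.5-fold difference, the nearest being POLR2J at 1.49-fold with sgRNA-AP1-71, which passed it there once the GC trend was removed, as POLR2E did without the trends of length and GC content. All 3 ratios of a gene share the single sgRNA-NT library, so a deviation of that library would appear in each of them.

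**Figure D2:**
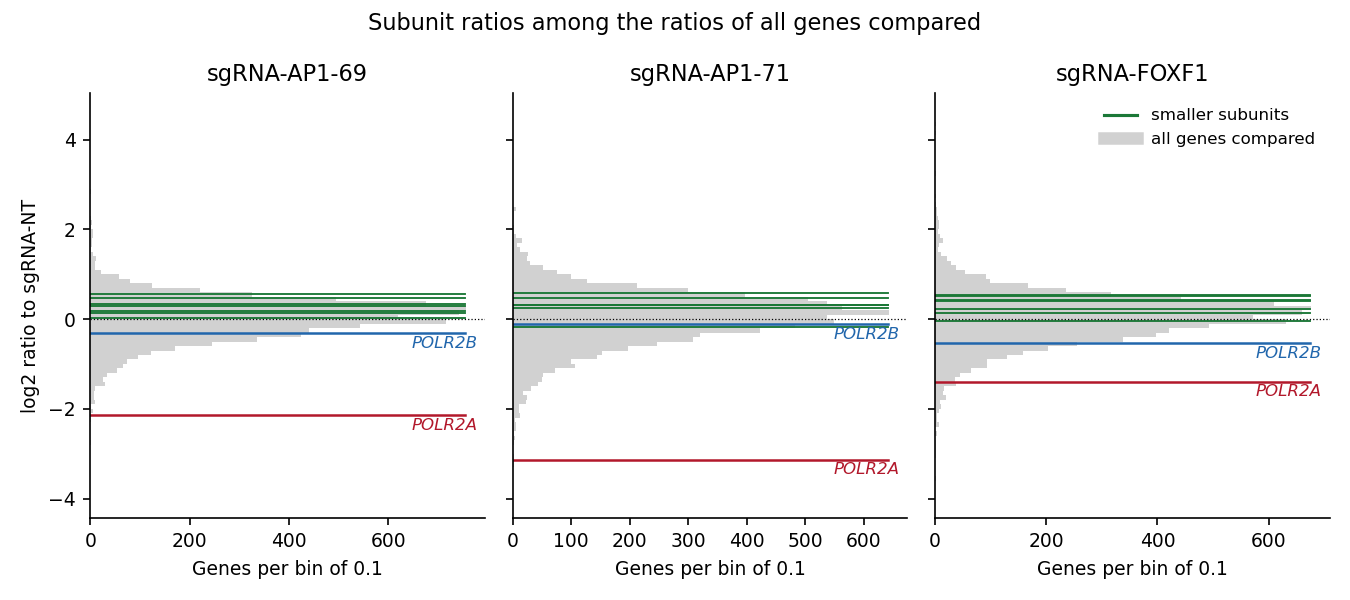
Log2 ratio to sgRNA-NT of the members (lines) over the histogram of all 7596 genes compared (grey, genes per bin of 0.1 log2), 1 panel per targeted library. POLR2A (red) lies in the lower tail, farthest with sgRNA-AP1-71 at -3.13, whereas POLR2B (blue) and the 7 smaller subunits (green) lie in the body of the distribution.

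The order of the subunits within a library changed with POLR2A. RPKM is scaled to transcript length, so levels of different genes in 1 library can be set side by side. This scaling does not remove the trend with length between libraries that is described below. POLR2A was the lowest of 9 members with both enhancer guides and ranked 8 from the highest with sgRNA-FOXF1, against 2 from the highest with sgRNA-NT. POLR2L ranked highest everywhere, and POLR2B was next to last with both enhancer guides and last in the other libraries. The level of POLR2A relative to POLR2B was 0.955 in the sgRNA-AP1-69 library, 0.416 for sgRNA-AP1-71 and 1.88 for sgRNA-FOXF1, against 3.39 with sgRNA-NT. Relative to the median of the 7 smaller subunits it was 0.224, 0.107 and 0.384 in the same order, against 1.31 with sgRNA-NT. That median was 28.6, 29.9 and 27.9 RPKM in the targeted libraries, against 21.5 RPKM with sgRNA-NT, so most of the change in the ratio lies in POLR2A itself. On the log2 scale, the ratio of POLR2A minus the median ratio of the smaller subunits was -2.43, -3.45 and -1.81 in the same order. With the length trend removed this distance was -1.82, -2.90 and -1.17.

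**Figure D3:**
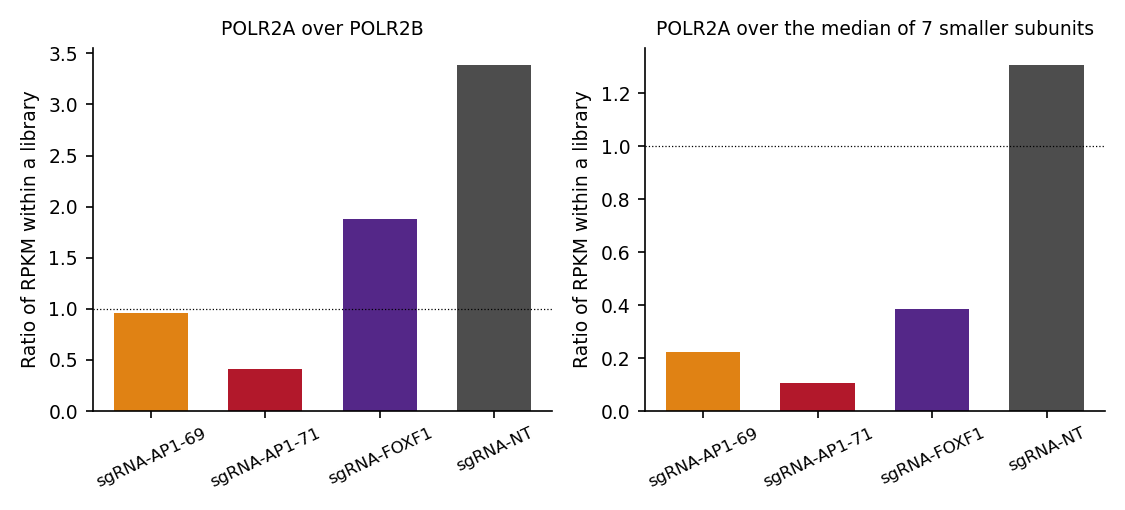
Level of POLR2A divided by that of POLR2B (left) and by the median of the 7 smaller subunits (right) within each library, as bars from 0 with a dotted line at 1. With sgRNA-NT both ratios are above 1, at 3.39 and 1.31, and the lowest bar in each panel is that of sgRNA-AP1-71, at 0.416 and 0.107.

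The targeted libraries can also be compared with each other, without the control. Between the enhancer guides, POLR2A was 2.0-fold lower for sgRNA-AP1-71, a log2 ratio to sgRNA-AP1-69 of -1.0 that ranked 13 from the lowest of 7596 genes, although both guides address the same site. Over all genes this ratio had an SD of 0.29. POLR2A was 1.67-fold higher with sgRNA-FOXF1 than with sgRNA-AP1-69 and 3.34-fold higher than with sgRNA-AP1-71, log2 ratios of 0.74 and 1.74 with SDs over all genes of 0.34 and 0.44. None of the other members differed by 1.5-fold in any of the 3 comparisons, the largest log2 difference being that of POLR2B between sgRNA-FOXF1 and sgRNA-AP1-71 (-0.43). Of all genes, 2.41% were higher and 2.84% lower by this fold for sgRNA-AP1-71 over sgRNA-AP1-69. For sgRNA-FOXF1 the shares were 4.50% higher and 3.50% lower over sgRNA-AP1-69, and 8.93% higher and 7.06% lower over sgRNA-AP1-71.

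The members differ widely in transcript length. In the GENCODE annotation lifted to GRCh37, the build to which the reads were aligned, POLR2A spans 7387685 to 7417933 on the plus strand of chromosome 17, with 30 exons and a canonical transcript of 6304 nt. POLR2B, on chromosome 4 from 57843888 to 57897324, has 25 exons and 3785 nt. The smaller subunits have transcripts from 443 nt (POLR2I) to 2854 nt (POLR2E). Longer transcripts tended to lower ratios in every targeted library. Spearman correlations of ratio and length over the 7566 genes of known length were -0.50, -0.45 and -0.45 in the order above, as a description over genes that share the same libraries. Over the 9 members this correlation was -0.40, -0.17 and -0.30. A smooth trend through all genes gave log2 ratios of -0.27, -0.32 and -0.33 at the length of POLR2A, where POLR2A itself was at -2.13, -3.13 and -1.39. With the trend removed, POLR2A remained below the control by log2 ratios of -1.79 in the sgRNA-AP1-69 library, -2.74 for sgRNA-AP1-71 and -1.01 for sgRNA-FOXF1. The median of the smaller subunits then became 0.02, 0.17 and 0.16, beside 0.09, 0.11 and 0.06 over all genes. The single subunits lay on both sides of this median. POLR2E was at 0.49, 0.50 and 0.52 after the correction, POLR2L at -0.27, -0.53 and -0.35, and POLR2G at -0.14, -0.11 and -0.17.

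POLR2D and POLR2K, subunits outside the set, add a long and a short transcript. POLR2D forms the stalk with POLR2G but has a transcript of 5038 nt, and it was at 6.0 RPKM with sgRNA-AP1-69, at 5.6 RPKM with sgRNA-AP1-71 and at 6.2 RPKM with sgRNA-FOXF1, against 7.3 RPKM with sgRNA-NT. Its log2 ratios of -0.28, -0.38 and -0.24 became -0.04, -0.10 and 0.04 once the trend was removed. POLR2K, a subunit common to all 3 polymerases with a transcript of 947 nt, was at 25.2, 26.1 and 25 RPKM, against 19.5 RPKM with sgRNA-NT. POLR2D was below the control and POLR2K above it in each targeted library before the correction. POLR2M, which encodes a protein bound to the polymerase rather than a core subunit, was at 1.5, 1.8 and 1.5 RPKM, against 1.3 RPKM with sgRNA-NT, too near the floor to compare.

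Base composition moved with the ratio mainly in the sgRNA-FOXF1 library. Across the same genes, the correlation of the log2 ratio with transcript GC content was 0.04 in the sgRNA-AP1-69 library, -0.10 for sgRNA-AP1-71 and 0.33 for sgRNA-FOXF1, and 0.58 for sgRNA-FOXF1 over sgRNA-AP1-71. The POLR2A transcript has 56.3% GC and that of POLR2B 41.0%. Removing the GC trend left POLR2A at log2 ratios of -2.15, -3.09 and -1.55 and brought POLR2B with sgRNA-FOXF1 to -0.23. The difference of POLR2A between sgRNA-FOXF1 and sgRNA-AP1-71 was 1.53 without the GC trend, against 1.74 with it. The 13 transcripts of the mitochondrial genome were listed as a possible check of RNA quality, and whether they follow it here was not tested. Their median log2 ratios were -1.02 in the sgRNA-AP1-69 library, -1.54 for sgRNA-AP1-71 and -0.77 for sgRNA-FOXF1, the same order of libraries as POLR2A. The single transcripts ranged from -2.29 to 0.37, from -3.18 to 0.28 and from -2.28 to 0.43 in that order. HRAS was at 446.4, 427.4 and 707.6 RPKM in the targeted libraries, against 829.4 RPKM with sgRNA-NT. The part of RNA quality and of the HRAS level in the POLR2A values was not tested.

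Annotated neighbours limit some of the values. POLR2I shares 925 nt of its span with TBCB, POLR2L 2476 nt with CD151, POLR2B 386 nt with IGFBP7, POLR2C 88 nt with DOK4, POLR2E 55 nt with ARHGAP45 and POLR2J 41 nt with LRWD1, each on the opposite strand. On the same strand POLR2B holds the small RNA genes snoU13 and RNU6-998P, and POLR2C shares 78 nt with an annotated lncRNA. The labels name a library kit without saying that it keeps the strand, whereas the methods of the study describe a stranded kit, and whether counting used the strand is not given in the sources used here. Reads in these stretches may therefore belong to either gene. POLR2A, POLR2G and POLR2H overlap no annotated gene.

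Among the genes whose ratios were most like those of POLR2A over the 3 targeted libraries were MT-ND5, PLEC, SRRM2 and LRP1. Likeness was the Euclidean distance between the 3 log2 ratios, over 5095 genes averaging 5 RPKM or more, and the distances were 0.16, 0.39, 0.52 and 0.55. MT-ND5, a subunit of complex I of the respiratory chain, was at 559.0 RPKM with sgRNA-AP1-69, at 287.0 RPKM with sgRNA-AP1-71 and at 829.4 RPKM with sgRNA-FOXF1, against 2382.4 RPKM with sgRNA-NT. PLEC, a large linker protein of the cytoskeleton, was at 44.2, 22.2 and 54.6 RPKM in that order, against 187.4 RPKM with sgRNA-NT. SRRM2, a splicing factor, was at 8.0, 4.6 and 11.7 RPKM, against 29.5 RPKM with sgRNA-NT. All 3 were lowest with sgRNA-AP1-71, as the measure of likeness selects. LRP1, an endocytic receptor, was at 12.6, 6.9 and 18.5 RPKM in that order, against 44.6 RPKM with sgRNA-NT. As the genes were chosen for ratios near those of POLR2A, their like order of libraries follows from the choice. PLEC, SRRM2 and LRP1 have transcripts of 9044 nt (SRRM2) to 14923 nt (LRP1) with a GC content of 56.0% (SRRM2) to 66.8% (PLEC). MT-ND5 is transcribed from the mitochondrial genome. Likeness used ratios before the length correction. After it PLEC was at -1.34, -2.12 and -0.98, SRRM2 at -1.36, -2.06 and -0.76 and LRP1 at -1.08, -1.73 and -0.47. POLR2A was then at -1.79, -2.74 and -1.01, and MT-ND5 at -2.21, -3.19 and -1.68. Nearest to the median profile of the smaller subunits were IL11RA, ERI3 and COPE, at distances of 0.02 to 0.03. COPE, a subunit of the COPI vesicle coat, was at 61.9, 62.9 and 65.9 RPKM in the targeted libraries, against 49.9 RPKM with sgRNA-NT.

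Genes that act with RNA polymerase II were examined as lists written from general knowledge. The counts in these lists stand beside 9.93%, 14.7% and 13.2% of all genes at least 1.5-fold lower and 8.18%, 14.0% and 11.6% higher in the order above, and nothing is called particular to a list. Of 46 pausing, elongation and CTD-modifying genes 45 could be compared, with 9, 13 and 13 at least 1.5-fold lower and 0, 2 and 1 higher in the 3 targeted libraries in the order above, and medians of -0.10, -0.14 and -0.34. AFF1, a scaffold of the super elongation complex, was at 1.5, 1.2 and 1.4 RPKM in that order, against 4.1 RPKM with sgRNA-NT. Its relative AFF4 was at 3.9, 2.8 and 2.3 RPKM, against 7.7 RPKM with sgRNA-NT. CDK12, a kinase of the CTD, was at 2.9, 2.7 and 2.5 RPKM, against 5.3 RPKM with sgRNA-NT, and SCAF8, which binds the phosphorylated CTD, was at 1.7, 1.6 and 1.9 RPKM, against 4.0 RPKM with sgRNA-NT. These 4 genes were below the control in each targeted library, and none was least reduced with sgRNA-FOXF1 by the margin seen for POLR2A. They were chosen for the size of their ratios, and AFF1 and SCAF8 lie near the floor. Their transcripts run from 5127 nt (SCAF8) to 9536 nt (AFF4), and with the length trend removed the medians of the list were 0.01, -0.07 and -0.10.

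The median of the initiation factors was above 0 with the enhancer guides and below 0 with sgRNA-FOXF1, where 10 of 24 were above the control. Of 33 general transcription factor genes 24 could be compared, with 0, 2 and 2 at least 1.5-fold higher and 0, 1 and 3 lower, and medians of 0.19, 0.25 and -0.07. TBP, which binds the TATA element, was at 5.1 RPKM with sgRNA-AP1-69, at 6.0 RPKM with sgRNA-AP1-71 and at 6.3 RPKM with sgRNA-FOXF1, against 4.1 RPKM with sgRNA-NT. TAF13, a TFIID subunit, differed in the other direction, at 17.9, 15.9 and 11.6 RPKM, against 24.8 RPKM with sgRNA-NT, and its transcript of 814 nt is short. TAF10 and TAF12 of the same complex had ratios from 0.40 to 0.73 on the log2 scale. In Mediator, the complex between activators and the polymerase, 27 of 32 genes could be compared, with 3, 4 and 6 at least 1.5-fold higher and 0, 1 and 1 lower, and medians of 0.21, 0.26 and 0.21. MED30 was at 4.0, 4.9 and 4.7 RPKM, against 2.3 RPKM with sgRNA-NT, and MED21 at 5.4, 6.0 and 5.4 RPKM, against 3.2 RPKM with sgRNA-NT. MED11 had log2 ratios of 0.61, 0.76 and 0.69, whereas MED1 had ratios of -0.49, -0.22 and -0.85. With the length trend removed, MED11 was at 0.297, 0.405 and 0.383. MED1, with a transcript of 8137 nt, was then at -0.018, 0.334 and -0.334, above the control with sgRNA-AP1-71.

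Genes for the assembly of the polymerase and for its relatives completed the comparison. Of 16 assembly and import genes 13 could be compared, with 2, 4 and 2 at least 1.5-fold higher and 0, 1 and 0 lower. The medians were 0.30, 0.36 and 0.21, or 0.189, 0.262 and 0.153 with the length trend removed. UXT, a prefoldin-like protein, was at 37.7, 44.1 and 35.3 RPKM in the targeted libraries, against 23.1 RPKM with sgRNA-NT. Its log2 ratios after the length correction were 0.365, 0.587 and 0.309. PIH1D1, a subunit of the R2TP chaperone complex, was at 13.5, 14.0 and 12.9 RPKM, against 8.5 RPKM with sgRNA-NT, and its corrected ratios were 0.423, 0.425 and 0.334. RUVBL1, an ATPase of the same complex, had uncorrected log2 ratios of 0.56, 0.55 and 0.47, and GPN3, a GTPase that accompanies the polymerase to the nucleus, 0.38, 0.79 and 0.26. Of 19 subunits of RNA polymerases I and III 15 could be compared. Of these, 1 gene was at least 1.5-fold higher in each library, and 1, 1 and 0 were lower. The medians of this list were 0.14, 0.12 and 0.09, or 0.192, -0.009 and 0.075 with the length trend removed. POLR1A, the counterpart of POLR2A in RNA polymerase I, was at 5.1 RPKM with sgRNA-AP1-69, at 3.8 RPKM with sgRNA-AP1-71 and at 6.7 RPKM with sgRNA-FOXF1, against 9.7 RPKM with sgRNA-NT. Its levels had the same order of libraries as those of POLR2A at smaller log2 ratios (-0.93, -1.35 and -0.53), and with the length trend removed for its transcript of 12480 nt the ratios were -0.25, -0.51 and 0.19, above the control with sgRNA-FOXF1. ZNRD1, also of RNA polymerase I, was at 4.8, 5.2 and 4.8 RPKM, against 3.1 RPKM with sgRNA-NT. Its log2 ratios after the length correction were 0.32, 0.395 and 0.32. POLR1D and POLR3K had uncorrected ratios between 0.20 and 0.41. With the length trend removed, POLR1D was at 0.036, -0.069 and -0.026 and POLR3K at 0.198, -0.009 and -0.037.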

How the data were processed

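RNA-seq was applied to 1 library for each of 4 conditions. Single-end 65 bp reads were aligned by the authors to hg19 (TopHat2) and assigned to genes (HTSeq). They converted the counts to RPKM with GENCODE annotations and quantile normalized them, so that values are relative within a library, and the deposited RPKM values have 1 decimal and a floor of 1. For both tools the version is not given in the sources used here. Another 3 deposited columns hold log2 ratios to sgRNA-NT, the comparisons of the authors, and were not used. Read depth is unknown.

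Log2 ratios were computed without a pseudocount for the 7596 genes averaging 2 RPKM or more, with differences counted from 1.5-fold or 2-fold. With 1 library per condition no test was made. Length and GC content were taken from canonical transcripts (GENCODE v44 on GRCh37), known for 11978 of 12033 genes. Trends were cubic splines with 5 knots, subtracted with the median of all genes added back. Calling and trend removal were tested on simulated data. Alternatives were a pseudocount of 1 RPKM, centring, other filters and the trends, and removal of both trends together was added after the data were seen.

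The members and lists were chosen with earlier results of these data known. Named genes are the members, other POLR2 genes, the 5 genes nearest to POLR2A, of which 1 is not reported here, and 3 nearest to the smaller subunits, per list up to 4 genes by mean absolute log2 ratio, FOXF1 and HRAS. Python 3.11.15, numpy 2.4.6, pandas 2.3.3, scipy 1.17.1 and matplotlib 3.10.9 were used.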

Additional observations from a re-analysis of the deposited data

How the results depend on the processing

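Of the members, only POLR2A differed by 1.5-fold or more, and its 3 ratios kept their sign under the alternatives run. The alternatives were run for members and counts, whereas genes of the other lists were recomputed only for transcript length. Some smaller ratios changed sign under the length correction, as POLR2B with sgRNA-AP1-71 (0.06) and POLR2G in each targeted library (-0.14, -0.11 and -0.17). Of all values, 214 of 279 stayed within the limits set for them (a log2 SD of 0.29 between the enhancer guides, or 1.5 times for a count). Values below run from sgRNA-AP1-69 over sgRNA-AP1-71 to sgRNA-FOXF1. The length correction moved the log2 ratio of POLR2A to -1.79, -2.74 and -1.01 and its distance from the smaller subunits to -1.82, -2.90 and -1.17. It left 126, 299 and 190 genes at least 2-fold lower, with 458 at least 1.5-fold lower for sgRNA-AP1-69 and 669 for sgRNA-FOXF1. Correction for length and GC content together, chosen after seeing the data, gave POLR2A -1.81 with sgRNA-AP1-69 and -2.68 with sgRNA-AP1-71, distances of -1.88, -2.84 and -1.19, and a median of 0.026 for the smaller subunits with sgRNA-FOXF1. With sgRNA-AP1-71 it placed 1 member, POLR2E (0.64), at least 1.5-fold higher, and the GC correction alone placed 1 other, POLR2J (0.61). With POLR2B in place of the smaller subunits the distances were -1.83, -3.03 and -0.85. A pseudocount of 1 RPKM brought POLR2A with sgRNA-AP1-71 to -2.79 and its distance to -3.09, with 39, 120 and 127 genes at least 2-fold higher, 353 at least 1.5-fold higher with sgRNA-AP1-69 and 235 at least 2-fold lower with sgRNA-FOXF1. Centring gave 63 genes at least 2-fold higher with sgRNA-AP1-69 and 2 members at least 1.5-fold lower with sgRNA-FOXF1, POLR2B being the added one. With a mean of at least 5 RPKM, 38, 123 and 105 genes lay 2-fold or more above the control and 160, 306 and 214 below it, and 329, 643 and 464 lay 1.5-fold or more above and 460, 699 and 584 below, as fewer genes were compared. For the other changes the cause was not tested. No paired analysis was possible because each condition has 1 library. For the same reason no library could be left out, and the error between replicates is unknown for every value.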
